A study of Mus musculus with 6 samples.

Results

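The genes of bile acid synthesis and transport were followed in primary hepatocytes from fibrotic mice with and without Foxa2. The module holds 35 genes of the 34745 in the count tables. They were chosen by symbol for their known roles, with earlier results of these data known. By role, 8 act on the sterol ring, 4 on the side chain and 2 in conjugation. A further 6 act in uptake, 7 in export into the canaliculus, 4 in export to blood and 4 in regulation. Of the 35 genes, 33 had enough counts to be tested. Hsd3b7 and Slc51a were listed at 0 in all 6 libraries.

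Hepatocytes of male mice aged 12 weeks were compared in 2 groups of 3 RNA-seq libraries each. All mice carried FOXA2flox/flox alleles, and all received CCl4, a hepatotoxin that causes liver fibrosis, in doses of 0.25 ml/kg, with 2 doses in each of 4 weeks, so no group without injury or without the floxed alleles is analysed here. FOXA2f/f mice were given AAV8-TBG-Control and FOXA2H-KO mice AAV8-TBG-Cre through the tail vein, 2 weeks before CCl4 began. The TBG promoter drives Cre in hepatocytes, so nonparenchymal cells keep the gene, and the cells were collected on day 3 after the last CCl4 dose. The labels number the libraries 1, 2 and 4 in each group without naming the animals, so the p-values below measure only the spread between these libraries.

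Hepatocytes turn cholesterol into bile acids through a classic pathway that starts with 7α-hydroxylation of the sterol ring, and through an alternative pathway that starts on the side chain. The products are conjugated with taurine or glycine, pumped across the canalicular membrane and taken up again from portal blood. FXR, the bile acid receptor, restrains synthesis and favours export, and FOXA2 is a forkhead factor that binds regulatory regions of many liver genes.

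Total counts per library lay between 20983455 and 28327765. Foxa2 (ENSMUSG00000037025, chromosome 2, 148042877 to 148046969) had 442, 246 and 516 counts in FOXA2f/f and 28, 19 and 35 in FOXA2H-KO replicates 1, 2 and 4. The deleted gene was thus at 6.95% of its control level (log2 fold change -3.85, SE 0.31, edgeR's quasi-likelihood test, Benjamini-Hochberg adjusted p = 0.0313). It was the single gene of 14417 called at an adjusted p under 0.05 with a fold change of at least 2 (0.00694%). All 10 hepatocyte markers were detected, with Alb taking 9.38% to 11.0% of each library, and none of them was called. FOXA2f/f replicate 2 stood apart: summed markers of endothelial cells, macrophages and stellate cells were lowest there of all 6 libraries, at 292, 543 and 947 CPM against 487 to 1017, 1168 to 2461 and 1200 to 2504 CPM in the others. Summed male-biased liver genes were highest there, at 7819 CPM against 2474 to 5402 CPM. FOXA2f/f replicate 1 had 14.4% mitochondrial counts, against 7.14% to 9.49% in the other libraries. Values without FOXA2f/f replicate 2 are given beside the members and counts that it moved most, and without replicate 1 the members had a median log2 fold change of -0.14 with 5 at an unadjusted p under 0.05, beside 4.1% of all genes. The part of either library's deviation in the results was not tested. In such bulk libraries, fewer cells of a type and less RNA per cell cannot be told apart.

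None of the 33 tested members was called (edgeR's quasi-likelihood test, smallest Benjamini-Hochberg adjusted p = 0.671 for Abcg8). DESeq2, which called 0.538% of all genes at an adjusted p under 0.05, and edgeR's exact test, which called 0.506%, also called 0 members. For Cyp8b1, DESeq2 gave no p, so its 0 does not cover that member. The smallest Benjamini-Hochberg adjusted p of a member was 0.0878 under DESeq2, for Abcg5, and 0.0638 under edgeR's exact test, for Slc51b. Both are far below their values in the quasi-likelihood test, so how near these members came to a call depends on the method. At an unadjusted p under 0.05 there were 5 members (15.2%), all lower in FOXA2H-KO, namely Cyp8b1, Abcg5, Abcg8, Slc51b and Atp8b1, beside 5.17% of all genes (3.18% lower and 1.98% higher). The 2 groups did not overlap in 3 members (9.09%), all lower, namely Abcg5, Abcg8 and Slc51b, beside 10.5% of all genes (5.96% lower and 4.54% higher). A fitted fold change of at least 2 was seen in 4 members, namely Cyp8b1, Abcg5 and Slc51b, which were lower, and Cyp7b1, which was higher, beside 2.95% of all genes. Of the 33 members, 23 had a log2 fold change below 0 and 10 above, with a median of -0.18. Among all genes, 52.2% were below 0 with a median of -0.01. The 10 hepatocyte markers leaned the same way as the members, with 9 below 0, 1 above and a median of -0.12. Scaled by library size alone, 19 members were below 0 and the median of all genes moved to 0.10, and on log2(FPKM + 1) 17 were below 0.

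**Figure D1:**
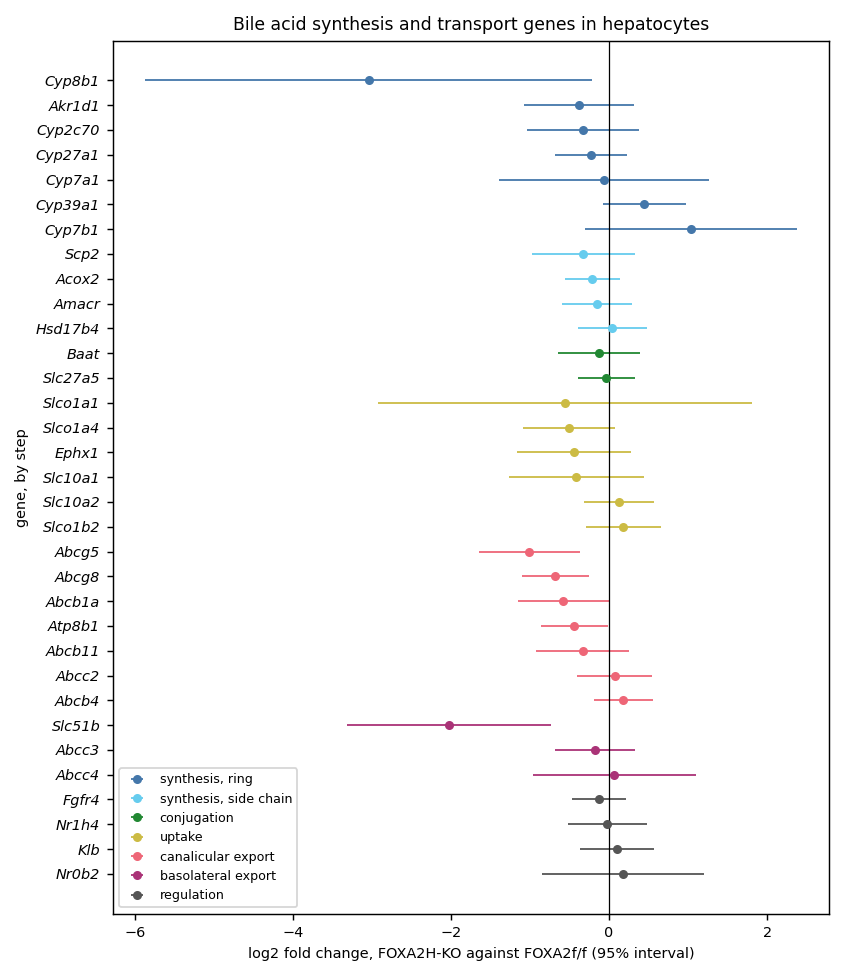
Log2 fold change of each tested member, FOXA2H-KO against FOXA2f/f (horizontal axis), grouped and coloured by step (vertical axis), with 95% intervals from edgeR's quasi-likelihood fit (n = 3 libraries per group). The intervals of Cyp8b1, Abcg5, Abcg8, Slc51b and Atp8b1 lie wholly below 0, and 0 of the 33 lies wholly above it.

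By step, the median log2 fold change was -0.44 over the 7 canalicular genes, -0.43 over the 6 uptake genes, -0.23 over 7 ring genes, -0.19 over the 4 side chain genes, -0.18 over 3 basolateral genes, -0.08 over the conjugation pair and 0.04 over the 4 regulators. Of the 5 members with an unadjusted p under 0.05, 4 belong to export. Without FOXA2f/f replicate 2, the median over the uptake genes turned to 0.12 and that over the canalicular genes was -0.27, while the ring genes were at -0.08, the side chain genes at -0.07, the basolateral genes at -0.30, the conjugation pair at 0.03 and the regulators at 0.09. The order of the steps in the fold change plot thus depends on that library, and differences between steps were not tested.

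Levels per gene length, as the mean FPKM over all 6 libraries, spanned from 1.03 for Slc51b to 324 for Cyp2c70. Scp2 (321 FPKM) and Slc10a1 (256 FPKM) came next below Cyp2c70, and the spread of these 3 overlapped. Abcc4 (1.69 FPKM), Klb (2.92 FPKM) and Abcb1a (3.55 FPKM) were the lowest above Slc51b. Among the hydroxylases, Cyp27a1 (56.0 FPKM) was above Cyp39a1 (33.4 FPKM), Cyp7b1 (14.7 FPKM) and Cyp7a1 (14.4 FPKM), and Cyp8b1 was at 6.73 FPKM.

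Cyp7a1 (chromosome 4, 6265612 to 6275633) encodes cholesterol 7α-hydroxylase, the rate-limiting enzyme of the classic pathway. It was at 103, 16.4 and 71.8 CPM in FOXA2f/f replicates 1, 2 and 4 and at 86.5, 45.4 and 50.7 CPM in FOXA2H-KO. The control libraries spanned the whole FOXA2H-KO range, since FOXA2f/f replicate 2 was the lowest of all and replicate 1 the highest. This gave a log2 fold change of -0.07 (95% interval -1.39 to 1.26, adjusted p = 0.998), and it lay between -0.52 and 0.47 when single libraries were left out.

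Cyp8b1 (chromosome 9, 121914356 to 121916305), a gene with a single exon, encodes the 12α-hydroxylase that directs synthesis toward cholic acid. Its level was 4.34, 71.4 and 2.48 CPM in FOXA2f/f and 4.38, 1.6 and 3.42 CPM in FOXA2H-KO. Only FOXA2f/f replicate 2 was high, at 20.9 times the mean of the other control libraries, and the remaining 5 libraries overlapped. With all libraries, Cyp8b1 had a log2 fold change of -3.04 (95% interval -5.87 to -0.22, adjusted p = 0.933), and of -0.11 without FOXA2f/f replicate 2. Per gene length, the ratio of Cyp8b1 to Cyp7a1 in FPKM was 9.83 in that library and between 0.0779 and 0.152 in the others. The same library held the highest sum of male-biased genes and the lowest sums of nonparenchymal markers given above, and their part in this value was not tested.

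The 250 bases before the start site of Cyp8b1 (RefSeq, GRCm38.p6, chr9:121916306-121916555, minus strand, written 5′ to 3′) are shown because they hold a match to the core letters bound by FOXA factors, searched as TGTTTAC or the related TATTTAC and, in a further pair of spellings, as TGTTTGC or the related TATTTGC on both strands, with the match in capitals.
Cyp8b1: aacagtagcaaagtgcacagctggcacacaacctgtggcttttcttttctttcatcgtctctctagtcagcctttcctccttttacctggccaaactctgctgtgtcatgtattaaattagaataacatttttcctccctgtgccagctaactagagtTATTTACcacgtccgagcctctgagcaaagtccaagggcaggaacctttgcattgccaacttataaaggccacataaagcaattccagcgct
The match lies 92 to 86 bases before the start site. Such a match is a description of letters and not a measured binding site.

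Cyp7b1 (chromosome 3, 18071950 to 18243338) encodes the oxysterol 7α-hydroxylase of the alternative pathway and is a male-biased gene in mouse liver. It was at 7.95, 43.7 and 11.0 CPM in FOXA2f/f and at 39.5, 40.2 and 48.1 CPM in FOXA2H-KO. FOXA2f/f replicate 2 lay within the FOXA2H-KO range, and the other control libraries lay well below it. Over all 6 libraries the log2 fold change was 1.04 (95% interval -0.30 to 2.37, adjusted p = 0.957). Without FOXA2f/f replicate 2 it was 2.16 with an adjusted p of 0.0419 (edgeR's quasi-likelihood test, Benjamini-Hochberg), and Cyp7b1 was then 1 of 6 genes called. Over all alternatives its adjusted p ran from 0.0419 to 1.0. The coefficient of variation was 94.8% in FOXA2f/f and 11.3% in FOXA2H-KO.

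Cyp27a1 (chromosome 1, 74713574 to 74737892) encodes the mitochondrial sterol 27-hydroxylase that opens the alternative pathway. It was at 149, 199 and 211 CPM in FOXA2f/f and at 186, 162 and 129 CPM in FOXA2H-KO, so the groups overlapped. Its log2 fold change was -0.23 (95% interval -0.69 to 0.23, adjusted p = 0.983). Cyp39a1, the 24-hydroxycholesterol 7α-hydroxylase, had a mean of 86.5 ± 25.3 CPM in FOXA2f/f and 118 ± 17 CPM in FOXA2H-KO (SD, n = 3), with a log2 fold change of 0.45 and a 95% interval of -0.08 to 0.97. Cyp2c70, which makes muricholic acids in mice, had a log2 fold change of -0.33, and Akr1d1, the 5β-reductase, of -0.38. Both intervals included 0, and without FOXA2f/f replicate 2 both values were -0.08.

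Hsd3b7, the 3β-hydroxysteroid dehydrogenase of the ring steps, had 0 counts in every library, where a count of 0 allows up to 3 counts per library for counting error alone. In GENCODE M21, 99.2% of its 2769 exonic bases (chromosome 7, 127800604 to 127803802) also lie in other annotated genes. How the authors' counting treated shared bases is not given in the sources used here, so this 0 does not give its level.

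The side chain and conjugation genes had log2 fold changes between -0.33 and 0.04. Amacr, the racemase, had a log2 fold change of -0.16, Acox2, the branched-chain oxidase, of -0.21, Hsd17b4, the bifunctional protein, of 0.04, and Scp2, the thiolase and sterol carrier, of -0.33, which was -0.0089 without FOXA2f/f replicate 2. Each interval included 0. Slc27a5, the bile acid CoA ligase, was among the steadiest members, at 467 ± 12.3 CPM in FOXA2f/f and 455 ± 48.1 CPM in FOXA2H-KO (SD, n = 3), and the 95% interval of its log2 fold change ran from -0.40 to 0.33. Baat, which joins bile acids to taurine or glycine, had a log2 fold change of -0.12 with an interval of -0.64 to 0.40.

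For uptake from blood, Slc10a1 (chromosome 12, 80953183 to 80968705), the sodium-dependent transporter NTCP, was at 457, 769 and 284 CPM in FOXA2f/f and at 299, 493 and 340 CPM in FOXA2H-KO. FOXA2f/f replicate 2 was the highest and replicate 4 of the same group the lowest of all 6. The difference on the log2 scale was -0.42 (95% interval -1.27 to 0.44, adjusted p = 0.983) with all libraries and 0.03 without FOXA2f/f replicate 2.

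Slco1a1 (chromosome 6, 141907282 to 141946962), an organic anion transporter with male bias in mouse liver, was at 4.34, 163 and 29.8 CPM in FOXA2f/f and at 46.5, 22.0 and 65.3 CPM in FOXA2H-KO. The control libraries held both the lowest and the highest value, 37.6-fold apart. Its log2 fold change was -0.56 (95% interval -2.93 to 1.81, adjusted p = 0.991) with all libraries and 1.37 without FOXA2f/f replicate 2, which turned its direction. Slco1a4 (chromosome 6, 141805440 to 141856199), a neighbouring transporter of the same family, was at 143, 173 and 111 CPM in FOXA2f/f and at 84.6, 135 and 79.6 CPM in FOXA2H-KO. Replicates 1 and 4 of FOXA2H-KO were below every control library, and replicate 2 lay among them. Its log2 fold change was -0.51 (95% interval -1.09 to 0.07, adjusted p = 0.941).

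The remaining uptake genes overlapped between groups. Slco1b2, the main hepatic organic anion transporter of this family in mice, had a log2 fold change of 0.18, and Slc10a2, the sodium-dependent transporter better known from ileum and cholangiocytes, of 0.12. Ephx1, the microsomal epoxide hydrolase, had a log2 fold change of -0.45 (95% interval -1.16 to 0.27), and of -0.02 without FOXA2f/f replicate 2.

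Among the canalicular exporters, the sterol transporter pair Abcg5 and Abcg8, whose proteins form a heterodimer that secretes cholesterol into bile, lay wholly below the controls. Abcg5 (chromosome 17, 84658234 to 84683011, minus strand) was at 114, 198 and 115 CPM in FOXA2f/f and at 56.2, 92.2 and 64.5 CPM in FOXA2H-KO. The groups did not overlap, and the FOXA2H-KO mean was at 49.8% of the control by the fit (log2 fold change -1.01, 95% interval -1.65 to -0.37, adjusted p = 0.689). The exact two-sided permutation test gave p = 0.1, which is the smallest that 3 against 3 libraries can give.

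Abcg8 (chromosome 17, 84676302 to 84700333, plus strand) was at 82.3, 133 and 113 CPM in FOXA2f/f and at 66.7, 70.3 and 67.9 CPM in FOXA2H-KO. Every FOXA2H-KO library was below every control, and the FOXA2H-KO libraries were close to each other, with a coefficient of variation of 2.72% against 23.5% in FOXA2f/f. For Abcg8 the log2 fold change was -0.68 (95% interval -1.11 to -0.26, adjusted p = 0.671). Leaving out single libraries gave -1.24 to -0.69 for Abcg5 and -0.84 to -0.52 for Abcg8. In both genes the value nearest 0 was the one without FOXA2f/f replicate 2. The FPKM ratio of Abcg5 to Abcg8 was 1.96 ± 0.375 in FOXA2f/f and 1.56 ± 0.371 in FOXA2H-KO (SD, n = 3, exact permutation p = 0.2). The genes share 3.02% of the exonic bases of Abcg5 on opposite strands, and whether the counting used strand is not given in the sources used here.

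The RefSeq start sites of this pair lie head to head at 84683011 and 84683121, and the 109 bases between them (GRCm38.p6, chr17:84683012-84683120, plus strand) are shown because both genes share them as promoter sequence, with the FOXA core letters in capitals.
Abcg5 and Abcg8: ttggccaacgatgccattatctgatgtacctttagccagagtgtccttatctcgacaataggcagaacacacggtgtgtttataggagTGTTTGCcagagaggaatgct
The single match spans chr17:84683100-84683106. It lies 95 to 89 bases before the Abcg5 start and 21 to 15 bases before the Abcg8 start.

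Abcb11 (chromosome 2, 69238282 to 69342616), the bile salt export pump, was at 357, 592 and 397 CPM in FOXA2f/f and at 421, 375 and 272 CPM in FOXA2H-KO. The highest was FOXA2f/f replicate 2 and FOXA2H-KO replicate 4 the lowest, and the 4 others were intermixed. The log2 fold change was -0.33 (95% interval -0.92 to 0.25, adjusted p = 0.983) and -0.08 without FOXA2f/f replicate 2. The 250 bases before its start site (RefSeq, GRCm38.p6, chr2:69342617-69342866, minus strand) are shown because they hold a match in an exporter whose levels overlapped. The match, in capitals, is on the opposite strand of the gene and lies 46 to 40 bases before the start.
Abcb11: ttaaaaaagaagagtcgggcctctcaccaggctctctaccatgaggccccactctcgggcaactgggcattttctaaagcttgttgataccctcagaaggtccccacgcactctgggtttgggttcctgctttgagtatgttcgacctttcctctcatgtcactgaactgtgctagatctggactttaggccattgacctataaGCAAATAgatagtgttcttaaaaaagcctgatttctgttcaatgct

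Abcb1a (chromosome 5, 8660077 to 8748575), a multidrug exporter, was at 24.2, 41.9 and 24.8 CPM in FOXA2f/f and at 19.3, 24.4 and 17.1 CPM in FOXA2H-KO. The groups overlapped only through FOXA2H-KO replicate 2, which was above FOXA2f/f replicate 1. The log2 fold change was -0.58 (95% interval -1.16 to 0.00014, adjusted p = 0.941) and -0.27 without FOXA2f/f replicate 2.

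Atp8b1 (chromosome 18, 64528967 to 64661267) encodes the flippase FIC1 that maintains the canalicular membrane. It was at 54.6, 66 and 40.8 CPM in FOXA2f/f and at 41.0, 37.5 and 40.2 CPM in FOXA2H-KO. FOXA2f/f replicate 4 lay within the narrow FOXA2H-KO range and the other controls above it. The log2 fold change was -0.44 (95% interval -0.86 to -0.02, adjusted p = 0.941). Without FOXA2f/f replicate 2 it was -0.27, and Atp8b1 was then not among the members at an unadjusted p under 0.05.

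The other canalicular genes had log2 fold changes above 0 with intervals that included 0. Abcb4, the phosphatidylcholine flippase, was at 258 ± 39.5 CPM in FOXA2f/f and 291 ± 12.7 CPM in FOXA2H-KO (SD, n = 3), with a log2 fold change of 0.18. Abcc2, the exporter of conjugates, had a log2 fold change of 0.07 with a 95% interval of -0.41 to 0.55.

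For export to blood, Slc51b (chromosome 9, 65412714 to 65422955) encodes the β subunit of the organic solute transporter. It was at 0.859, 1.04 and 0.636 CPM in FOXA2f/f, from 20, 19 and 20 counts, and at 0.147, 0.361 and 0.0925 CPM in FOXA2H-KO, from 4, 9 and 2 counts. The groups did not overlap, and the log2 fold change was -2.02 (95% interval -3.31 to -0.73, adjusted p = 0.689), at 24.6% of the control level. The exact two-sided permutation test again gave p = 0.1. These counts are few, and 12.8% of the 709 exonic bases overlap Rasl12. Slc51a, its α subunit partner, had 0 counts in all 6 libraries, and 17.7% of its 3198 exonic bases overlap Pcyt1a on the opposite strand. Whether this 0 gives the level of Slc51a or comes from the authors' counting was not tested, so the level of the dimer was not read. Abcc3 and Abcc4, exporters of conjugated bile acids, had log2 fold changes of -0.18 and 0.07, and Abcc4 was at 3.67 CPM in FOXA2f/f replicate 2 against 7.26 to 14.7 CPM elsewhere.

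**Figure D2:**
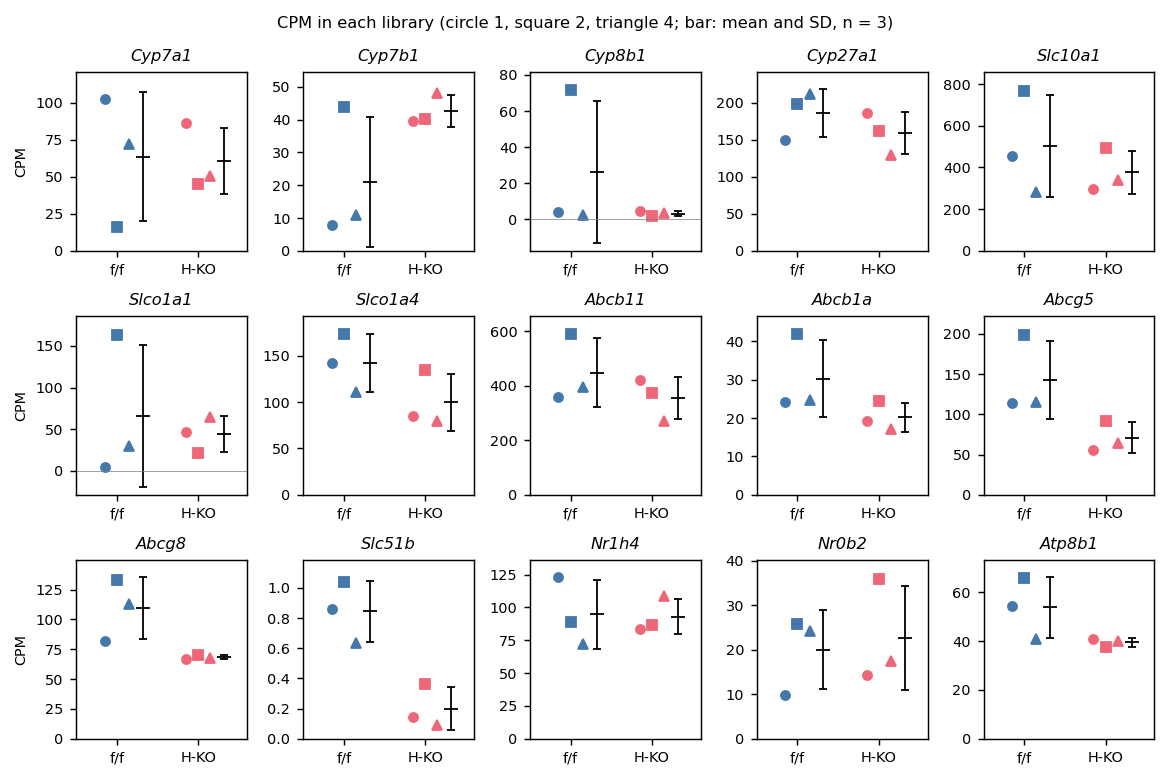
CPM (TMM-scaled, vertical axes from 0 except Cyp8b1 and Slco1a1, whose SD bars reach below 0) of 15 members in each library (horizontal axis, FOXA2f/f and FOXA2H-KO), with the mean and SD beside the points (n = 3). Abcg5, Abcg8 and Slc51b show no overlap between groups, while the square of FOXA2f/f replicate 2 stands far above the other controls in Cyp8b1 (71.4 CPM), Cyp7b1 (43.7 CPM) and Slco1a1 (163 CPM).

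The 4 regulators had log2 fold changes between -0.13 and 0.17. Nr1h4 (chromosome 10, 89454234 to 89533585), which encodes FXR, was at 123, 88.9 and 72.0 CPM in FOXA2f/f and at 83.9, 86.7 and 108 CPM in FOXA2H-KO. The control range enclosed the FOXA2H-KO range. Its log2 fold change was -0.03 (95% interval -0.53 to 0.47, adjusted p = 0.998).

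Nr0b2 (chromosome 4, 133553376 to 133556536) encodes SHP, an FXR target that represses Cyp7a1. It was at 9.92, 25.9 and 24.3 CPM in FOXA2f/f and at 14.3, 36.0 and 17.5 CPM in FOXA2H-KO. Values were spread in both groups and overlapped, with a log2 fold change of 0.17 (95% interval -0.85 to 1.20, adjusted p = 0.993). Fgfr4 and Klb, the receptor and co-receptor for the intestinal hormone FGF15, had log2 fold changes of -0.13 and 0.10, with 95% intervals of -0.46 to 0.21 and -0.37 to 0.56.

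Within groups, the median coefficient of variation of the members was 27.7% in FOXA2f/f and 19.2% in FOXA2H-KO, beside 20.6% and 12.8% over all genes tested. FOXA2f/f replicate 2 was the highest of all 6 libraries in 16 of the 33 members, beside 29.65% of all genes tested, and FOXA2H-KO replicate 4 was the lowest in 11, beside 13.0% of all genes tested. Without FOXA2f/f replicate 2 the median log2 fold change of the members was -0.08, with 21 below 0 and 5 at an unadjusted p under 0.05, beside 5.59% of all genes. Of these, Abcg5, Abcg8 and Slc51b were lower and Cyp7b1 and Cyp39a1 higher. The map of library deviations shows this as a column of positive values that crosses steps, with Cyp7a1 and Abcc4 as the main exceptions.

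**Figure D3:**
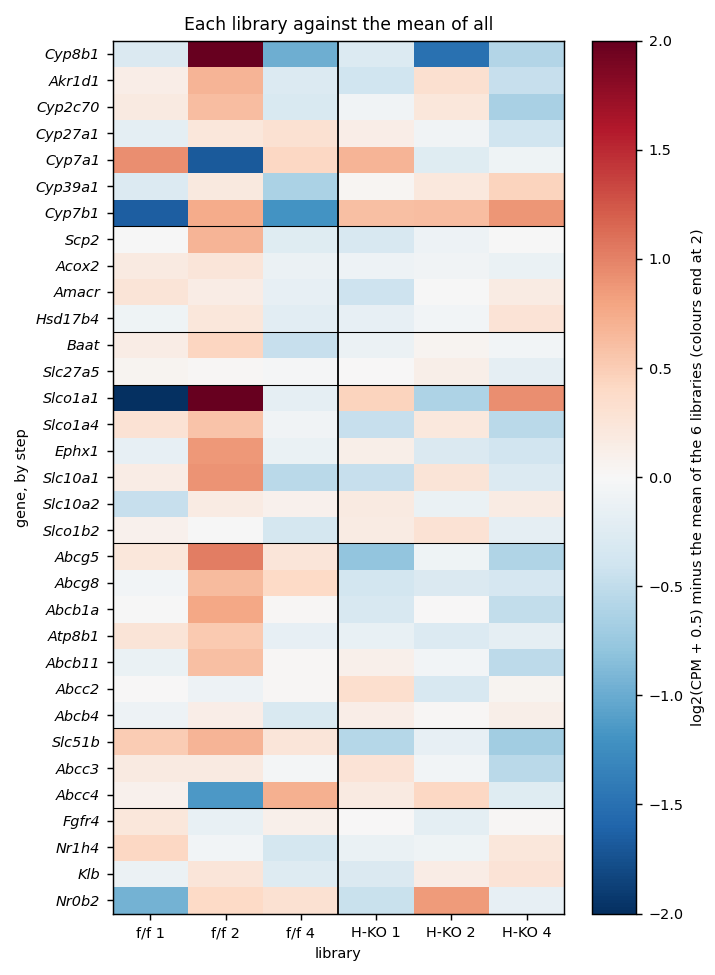
Deviation of each library from the mean of all 6, as log2(CPM + 0.5) with colours ending at 2 in either direction, for the 33 tested members (vertical axis, by step) in each library (horizontal axis). FOXA2f/f replicate 2 is the highest library in 16 members, and FOXA2H-KO replicate 4 the lowest in 11.

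The plot with each library left out shows how far single libraries carried the values. Of the 10 members plotted, Abcg5, Abcg8, Slc51b, Atp8b1, Cyp8b1 and Abcb11 had a log2 fold change below 0 in each of the 6 fits and Cyp7b1 above 0, whereas Cyp7a1, Slco1a1 and Slc10a1 crossed 0 in at least 1. For the genes whose groups do not overlap, the direction is fixed by that property.

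**Figure D4:**
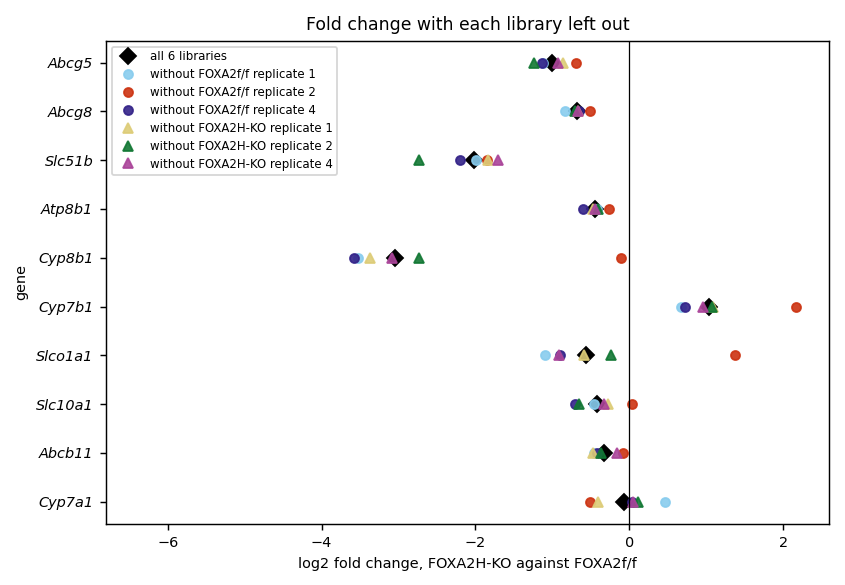
Log2 fold change (horizontal axis) of 10 members (vertical axis) with all 6 libraries (diamonds) and with each library left out in turn (circles for FOXA2f/f, triangles for FOXA2H-KO). Without FOXA2f/f replicate 2, Cyp8b1 moved from -3.04 to -0.11, Slco1a1 from -0.56 to 1.37 and Cyp7b1 from 1.04 to 2.16.

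Promoter sequence was found in RefSeq for 26 of the 35 members, as 30 windows of 300 bases (250 before and 50 after a start site). No entry was matched for Cyp7a1, Cyp7b1, Cyp39a1, Amacr, Hsd17b4, Slc27a5, Baat, Abcc3 and Atp8b1. FOXA core letters were in 9 of the 30 windows (30.0%), beside 13.5% of 32851 windows of all genes and 1384 of 13821 windows of tested genes. The windows belong to Abcb11, Abcb1a, Abcg5, Abcg8, Acox2, Cyp8b1, Ephx1, Slc10a1 and Slco1b2, and those of Abcg5 and Abcg8 share 1 match. Some RefSeq start sites differ from the GENCODE gene ends. The Abcb1a window begins at 8566841, far upstream of the GENCODE gene start at 8660077, and those of Acox2, Ephx1 and Slc10a1 lie within the GENCODE gene. The inverted repeat bound by FXR was searched only as the exact letters AGGTCA and TGACCT, 1 base apart. It was in 0 member windows, in 3 of all windows (0.00913%) and in 0 of the 13821 windows of tested genes. The LRH-1 letters TCAAGGTCA were in 0 member windows and in 0.423% of all windows. With exact letters this rare, a 0 among 30 windows cannot show whether members hold such sites in other spellings.

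Genes around the module were read from lists chosen for the same pathways, and none of their genes was called. Of 12 tested genes of further synthesis and cholesterol esterification, 9 had a log2 fold change below 0. At an unadjusted p under 0.05 there were 2 (16.7%), both lower, beside 5.17% of all genes (3.18% lower). These were Soat2, which esterifies cholesterol (log2 fold change -0.62), and Acat2, a cytosolic thiolase (log2 fold change -0.48, no overlap). Acat2 was the 1 gene of the 12 without overlap (8.33%), beside 10.5% of all genes. Cyp46a1, a cholesterol 24-hydroxylase, was next at -0.84 with 0.555 to 1.8 CPM.

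Of 12 tested further transporters, 7 had a log2 fold change below 0. Abcb1b, a paralog of Abcb1a, was at 5.03, 4.17 and 4.39 CPM in FOXA2f/f and at 8.53, 4.61 and 8.97 CPM in FOXA2H-KO, with a log2 fold change of 0.70, opposite in sign to that of Abcb1a. Abcc6 was lower without overlap at -0.33, and so was Slc22a7, an organic anion transporter, at -0.70, whereas Slc10a3 was higher without overlap at 0.25. These were 3 of the 12 further transporters (25.0%), beside 10.5% of all genes. All 14 genes of canalicular trafficking and junctions overlapped between groups, with a median of 0.03. Ezr, which encodes the membrane linker ezrin, had the largest value there at 0.58, and Ceacam1 and Stx3 were at -0.28 and 0.13.

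Of 22 tested further regulators, 13 had a log2 fold change above 0. Prox1, a homeobox corepressor of bile acid synthesis genes, was at 113, 66.8 and 52.4 CPM in FOXA2f/f and at 138, 129 and 190 CPM in FOXA2H-KO. The groups did not overlap, with a log2 fold change of 0.98 (95% interval 0.30 to 1.66, adjusted p = 0.771). Nr1i2, the xenobiotic receptor PXR, was also higher without overlap at 0.36, and Foxo1 was at 0.40. Genes without overlap were 2 of the 22 regulators (9.09%), beside 10.5% of all genes. Foxa1 and Foxa3, the paralogs of Foxa2, were at 0.14 and 0.10 with overlap. Fgf15 was listed at 0 counts, and Vdr and Gpbar1 were at or under 0.509 CPM.

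Of 10 tested genes of bile acid detoxification, 7 had a log2 fold change below 0. Cyp2b10 was at 70.2, 163 and 113 CPM in FOXA2f/f and at 241, 181 and 246 CPM in FOXA2H-KO, without overlap and with a log2 fold change of 0.95 (adjusted p = 0.791). Sult2a8, a bile acid sulfotransferase, was at -1.46 and Sult1a1 at 0.56, both with overlap. Cyp3a11 was at 457 CPM in FOXA2H-KO replicate 4 against 4447 to 12090 CPM in the other libraries.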

How the data were processed

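RNA of primary hepatocytes was sequenced as paired-end libraries. Per the submitters' processing notes, CASAVA 1.8, TopHat2 2.1.0, HTSeq and edgeR were used with mm10. The annotation and strand setting are not given in the sources used here. The authors deposited whole-number counts per gene without normalization, and FPKM values beside them. Samples were grouped by their titles. The members and gene lists were chosen with earlier results of these data known.

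The counts were fitted with edgeR 4.0.16 under R 4.3.3, using TMM scaling, the quasi-likelihood test and the filterByExpr filter, which kept 14417 genes. A gene was called where its Benjamini-Hochberg adjusted p was under 0.05 and its level changed 2-fold or more. CPM values are TMM-scaled. Members with an unadjusted p under 0.05, no overlap between groups or an absolute log2 fold change of at least 0.5 are given by library, as are Cyp7a1, Cyp8b1, Cyp27a1, Cyp7b1, Abcb11, Slc10a1, Nr1h4 and Nr0b2. Of each further pathway list, up to 3 genes with the smallest p are named, and Foxa1, Foxa3, Cyp3a11, Fgf15, Vdr, Gpbar1, Slc10a3, Oat and Lhpp were added after their values were seen. Alternatives were DESeq2 1.42.0, edgeR's exact test, other scalings and filters, limma 3.58.1 on log2(FPKM + 1), a replicate block and each library left out. The fit was tested on simulated data. Positions are from GENCODE M21 (GRCm38) and promoters from RefSeq (GRCm38.p6).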

Additional observations from a re-analysis of the deposited data

How the results depend on the processing

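Of the log2 fold changes of members under the alternatives, 459 kept their direction and side of the threshold, 34 turned direction and 1 (Cyp7b1, above) became called. The 459 include Cyp8b1 under DESeq2, which had no p there and was taken as not called. None of those that turned passed an adjusted p of 0.05. With library size alone, Cyp7a1 was at 0.046, Slc27a5 at 0.085, Baat at 0.028 and Nr1h4 at 0.11. On log2(FPKM + 1), Cyp7a1 was at 0.29, Slc27a5 at 0.081, Baat at 0.041, Slco1a1 at 0.29, Nr1h4 at 0.12 and Fgfr4 at 0.00084. With single libraries left out, the values ran from -0.52 to 0.47 for Cyp7a1, -0.093 to 0.18 for Hsd17b4, -0.11 to 0.051 for Slc27a5, -0.33 to 0.089 for Baat, -0.70 to 0.030 for Slc10a1, -0.038 to 0.24 for Slc10a2, -1.09 to 1.37 for Slco1a1, -0.10 to 0.22 for Abcc2, -0.39 to 0.021 for Abcc3, -0.30 to 0.57 for Abcc4, -0.19 to 0.23 for Nr1h4, -0.34 to 0.42 for Nr0b2 and -0.0088 to 0.26 for Klb. The genes called numbered 73 with DESeq2, 64 with edgeR's exact test, 2 with no filter beyond 1 count, 0 with library size alone, 0 on log2(FPKM + 1) and 0 to 6 with single libraries left out. The members called numbered 0 to 1 with single libraries left out, the 1 being Cyp7b1. Members with an unadjusted p under 0.05 numbered 8 with no filter (4.84% of all genes), and between 3 (without FOXA2H-KO replicate 1 or 4, where 4.06% and 2.78% of all genes passed) and 8 (without FOXA2f/f replicate 4, where 16.6% of all genes passed) with single libraries left out. Members whose groups do not overlap numbered 5 (15.2%) with library size alone and 5 in FPKM, beside 11.5% of all genes in each. In an alternative added after seeing the data, as were the step medians without single libraries, they numbered 4 to 7 with single libraries left out, beside 15.5% to 36.5% of all genes. The log2 fold change of Foxa2 was -3.74 (adjusted p = 0.124) with library size alone and -1.95 on log2(FPKM + 1), where the pseudocount limits low genes, and -4.17 to -3.63 with single libraries left out. Its adjusted p was above 0.05 in 5 of these 6 fits, all except that without FOXA2f/f replicate 2. The cause of the other changes was not tested. Deviations of libraries with the same number had correlations of -0.07, 0.03 and -0.23, beside -0.19 to 0.25 for libraries with different numbers. With 3 libraries per group, this cannot show whether the numbers pair them. With the replicate number as a block, 0 genes were called, Foxa2 was at -3.88 (adjusted p = 0.0536), Cyp7a1 at 0.21 and Slco1a1 at 0.70, and 6 members had an unadjusted p under 0.05. Depth limits Slc51b most, whose libraries hold 2 to 20 counts.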

Other observations

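Cholangiocyte markers all had log2 fold changes above 0 in the 8 of 10 genes tested, with a median of 0.57. Krt19 and Krt7, the keratins that define these cells, were higher in FOXA2H-KO without overlap, at 0.987 to 1.42 and 0.548 to 1.21 CPM in FOXA2f/f and at 1.44 to 3.38 and 1.36 to 2.83 CPM in FOXA2H-KO. They were the 2 of the 8 genes (25.0%) without overlap, beside 10.5% of all genes. The summed level of the list was 202 to 385 CPM in FOXA2f/f and 271 to 738 CPM in FOXA2H-KO, most of it from Spp1, and Tff2 was at or under 0.321 CPM. None of these genes was called (edgeR's quasi-likelihood test, smallest Benjamini-Hochberg adjusted p of the list 0.941). The part of bile duct cells in these values, and in those of transporters they share with hepatocytes, such as Slc10a2, was not tested. By PanCK staining, a protein measure in whole fibrotic liver, the paper saw no significant change of the bile duct response with hepatocyte FOXA2.

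Markers that define the region of the lobule around the central vein, where Cyp7a1 is known to be expressed, had log2 fold changes above 0 in 10 of the 11 genes tested, with a median of 0.29. Their summed level overlapped between groups, at 3111, 1786 and 2922 CPM in FOXA2f/f and at 3656, 3564 and 2717 CPM in FOXA2H-KO. It was lowest in FOXA2f/f replicate 2. Oat was at 26.1, 14.2 and 35.4 CPM in FOXA2f/f and at 89.9, 103 and 89.6 CPM in FOXA2H-KO, and Lhpp also did not overlap. These were 2 of the 11 genes (18.2%), beside 10.5% of all genes. Of the 12 periportal genes, 7 were below 0 and the median was -0.10. None of these genes was called, and the smallest adjusted p among the pericentral genes was 0.539.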
